A study of Mus musculus with 15 samples.

Results

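The comparison described is AngII + ldCil against control: primary mouse cardiomyocytes given angiotensin II (AngII) together with low-dose cilengitide (ldCil), set against cells given saline. Its members were chosen by treatment label, 3 control libraries (S1, S2 and S3) and 4 that received both agents (S13 to S16), that is 7 of the 15 libraries of the RNA-Seq series. Genes were taken by level, namely the 12848 of 14337 listed whose log2 RPKM averaged 0 or more across the series. All cells came from whole hearts of wild-type C57/BL6 pups aged 1 to 3 days, were cultured for 5 days and were then starved for 24 h in medium with 0.5% FBS. AngII was added at 1 µM on day 6 and again on the next day, cilengitide at 20 nM in parallel, and RNA was taken on day 8. The 4 AngII and 4 ldCil libraries, from cells given 1 agent only, entered the same fit and serve as references. Nothing in the sources used here says how many pups or cultures lie behind a library, so the p-values speak of the variation among libraries, which could be technical. RPKM is the number of reads scaled to transcript length and to library size. The files hold no read counts, so the depth behind each value is unknown and counting error cannot be stated.

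AngII is the effector hormone of the renin-angiotensin system. It acts on cardiomyocytes through Gq-coupled AT1 receptors and is widely used to enlarge them in culture, a model of the load response of the heart. Cilengitide is a cyclic RGD peptide that occupies αvβ3 and αvβ5 integrins, the receptors by which cells hold RGD-bearing matrix proteins such as vitronectin and fibronectin. At high doses it blocks them and was developed against blood vessel growth, while low doses have been used to promote it.

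The cells carried the genes that define cardiomyocytes. Myh6, the main adult myosin heavy chain of the mouse heart, stood at a mean log2 RPKM of 11.25 ± 0.16 (SD, n = 3) in control and 11.04 ± 0.23 (SD, n = 4) in AngII + ldCil libraries, and Nppa, the atrial natriuretic peptide, at 11.98 and 11.96. Other cell types were present: the fibroblast collagen Col1a1 stood at 9.99 in control libraries and the macrophage lysozyme Lyz2 at 7.36. Of the 10 erythroid markers listed, 0 passed the level filter, and of the 12 neuronal and Schwann cell markers 4 did. In such bulk RNA, fewer cells of a type and less RNA per cell cannot be told apart.

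The 7 libraries did not fall into tight groups. On the main axis of variation over all 15 libraries, which held 49.0% of the variance, the controls stood at 37.3 (S1), 14.03 (S2) and 43.0 (S3), and the AngII + ldCil libraries at 4.44 (S13), 5.12 (S14), −42.0 (S15) and −24.7 (S16). Control S2 correlated more closely with S13 and S14 (Pearson r over genes 0.986 and 0.987) than with its fellow controls S1 (0.977) and S3 (0.968). S15 and S16 lay furthest from the controls, with r between 0.907 and 0.949 to the 3 of them. Counts over genes are therefore also given without S15 and S16, a choice made after seeing the data.

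No gene differed between AngII + ldCil and control at an adjusted p under 0.05 in limma, the smallest adjusted p being 0.849. At an unadjusted p under 0.05 there were 722 genes, 5.62% of those tested, where 642 would be reached by chance. The study used a p under 0.01 for AngII against control, together with high average expression. For AngII + ldCil against control it took a p above 0.05 as not differentially expressed. At an unadjusted p under 0.01 in the present comparison, 59 genes were higher (0.459%) and 52 lower (0.405%), 111 in all against 128 by chance. Without S15 and S16 these counts were 38 and 24. Genes are therefore named by their rank in the data. Each of the 24 leading genes, 12 in either direction, had an adjusted p of 0.849. Every other gene given with a fold change was at an unadjusted p under 0.05, unless the text says that it did not pass. Fold changes are AngII + ldCil minus control on the log2 scale, with their standard error (SE) from limma.

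The higher genes were mostly weakly expressed. Of the 59, 34 had a mean log2 RPKM under 1, although only 1088 of the 12848 genes lay there. The median fold change in that range was 0.38 on the log2 scale, against 0.14 for levels of 1 to 2, 0.05 for 2 to 4 and −0.05 for levels of 8 and above. The number of tested genes listed below 0 moved with it, at 377 to 432 in the controls, 366 and 334 in S13 and S14, and 183 and 113 in S15 and S16. Their part in the higher folds of weak genes was not tested.

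**Figure D1:**
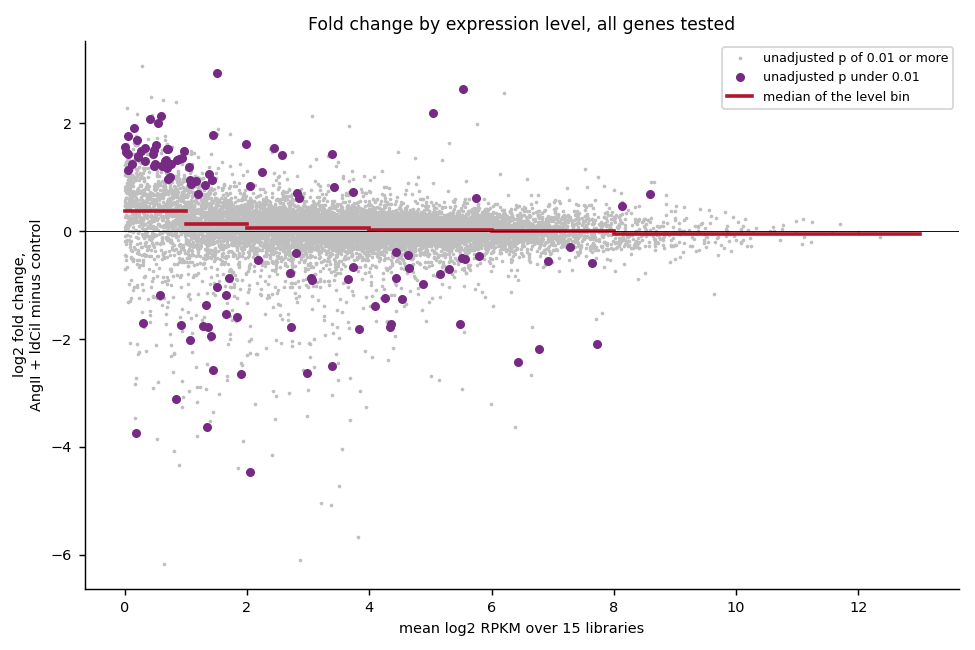
Log2 fold change of AngII + ldCil minus control for each of the 12848 genes tested, plotted against the mean log2 RPKM over the 15 libraries. Purple points are the 111 genes at an unadjusted p under 0.01 and red lines the median of each level range, which runs from 0.38 at levels under 1 to −0.05 at levels of 8 and above.

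Interferon-response genes formed the list with the lowest median. They encode proteins that sense, block or degrade viral RNA and proteins, and many of their promoters carry a short DNA element, the interferon-stimulated response element. MHC class I genes, which display peptides to T cells, carry related elements, and many chemokine genes carry a κB site, bound by NF-κB. The 250 bases before the gene start are shown for 4 genes of these lists because their levels are described below and the promoter holds a match to the response element (GAAA, any 2 letters, GAAA) or to the κB site (GGGA, any letter, TTTCC), searched on both strands. The sequences are from RefSeq (GRCm38.p6), read 5′ to 3′ on the strand of the gene, with matches in capitals. They are those of B2m (chr2:122147437-122147686, plus strand), H2-T23 (chr17:36032702-36032951, minus strand), Bst2 (chr8:71537473-71537722, minus strand) and Cxcl1 (chr5:90890995-90891244, plus strand).
B2m: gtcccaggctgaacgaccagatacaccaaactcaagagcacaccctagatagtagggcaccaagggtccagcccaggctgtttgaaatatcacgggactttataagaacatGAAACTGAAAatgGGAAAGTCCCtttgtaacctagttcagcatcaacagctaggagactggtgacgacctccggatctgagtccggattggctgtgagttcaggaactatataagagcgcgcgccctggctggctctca
H2-T23: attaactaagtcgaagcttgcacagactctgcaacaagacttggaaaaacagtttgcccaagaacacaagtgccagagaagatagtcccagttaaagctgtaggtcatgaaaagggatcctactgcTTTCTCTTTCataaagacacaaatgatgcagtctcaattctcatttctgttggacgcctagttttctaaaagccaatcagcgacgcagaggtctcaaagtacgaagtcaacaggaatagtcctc
Bst2: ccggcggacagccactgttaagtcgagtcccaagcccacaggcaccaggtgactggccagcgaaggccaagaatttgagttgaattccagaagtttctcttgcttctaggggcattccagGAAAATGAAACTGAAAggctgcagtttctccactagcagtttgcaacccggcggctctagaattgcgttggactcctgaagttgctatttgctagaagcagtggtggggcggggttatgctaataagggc
Cxcl1: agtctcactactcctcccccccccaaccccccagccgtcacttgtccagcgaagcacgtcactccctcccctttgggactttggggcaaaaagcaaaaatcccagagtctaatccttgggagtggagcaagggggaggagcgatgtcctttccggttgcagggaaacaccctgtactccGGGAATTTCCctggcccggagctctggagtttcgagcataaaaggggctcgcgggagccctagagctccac
B2m holds a response element followed by a κB match on the other strand, H2-T23 a response element on the other strand, Bst2 a pair of overlapping response elements, and Cxcl1 a κB match.

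Of the 9547 tested genes with a promoter window of 300 bases (250 before to 50 after the start), 334 held a match to the response element (3.50%) and 48 a match to the κB site (0.503%). The response element was matched in 11 of the 21 interferon-response genes with a window (52.4%) and in 3 of 11 MHC class I genes (27.3%), and the κB site in 4 of 16 chemokine and cytokine genes. The lists were written from textbook knowledge of these pathways, so the shares follow in part from the choice of members. A match is a run of letters and does not show that a factor was bound in these cells.

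All 29 interferon-response genes tested had a lower mean in AngII + ldCil than in control libraries, where 41.6% of all genes did. Their median log2 fold change was −2.75, beside 0.05 over all genes tested, and ranged from −5.08 to −0.60. At an unadjusted p under 0.05, 24 were lower (background 2.92%), and for 25 the groups did not overlap (background 6.11%). The direction held in every fit that left out 1 of the 7 libraries, but the number past the threshold did not: it was 4 without S1, 3 without S3, 9 without S15, 9 without S16 and 2 without both S15 and S16, with a median of −2.10 in the last case.

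The list mean per library, centred on the 15 libraries, was 1.96 in S1, 0.40 in S2 and 2.49 in S3, and −0.44, −0.47, −1.64 and −1.58 in S13 to S16. Control S2 thus lay between S1 and S3 on the high side and the AngII + ldCil libraries on the low side. High values were not tied to saline. Among cells given AngII alone S5 stood at 1.93, and among those given ldCil alone S9 and S10 stood at 2.46 and 2.18, while the other libraries of both groups lay between −1.79 and −0.77. AngII + ldCil was lower than AngII alone by a median with a log2 difference of −0.48, with 0 of 29 genes at an unadjusted p under 0.05 (background 1.61% higher and 0.965% lower), and lower than ldCil alone with a median of −1.37 and 1 gene at that p (background 2.75% higher and 2.33% lower).

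**Figure D2:**
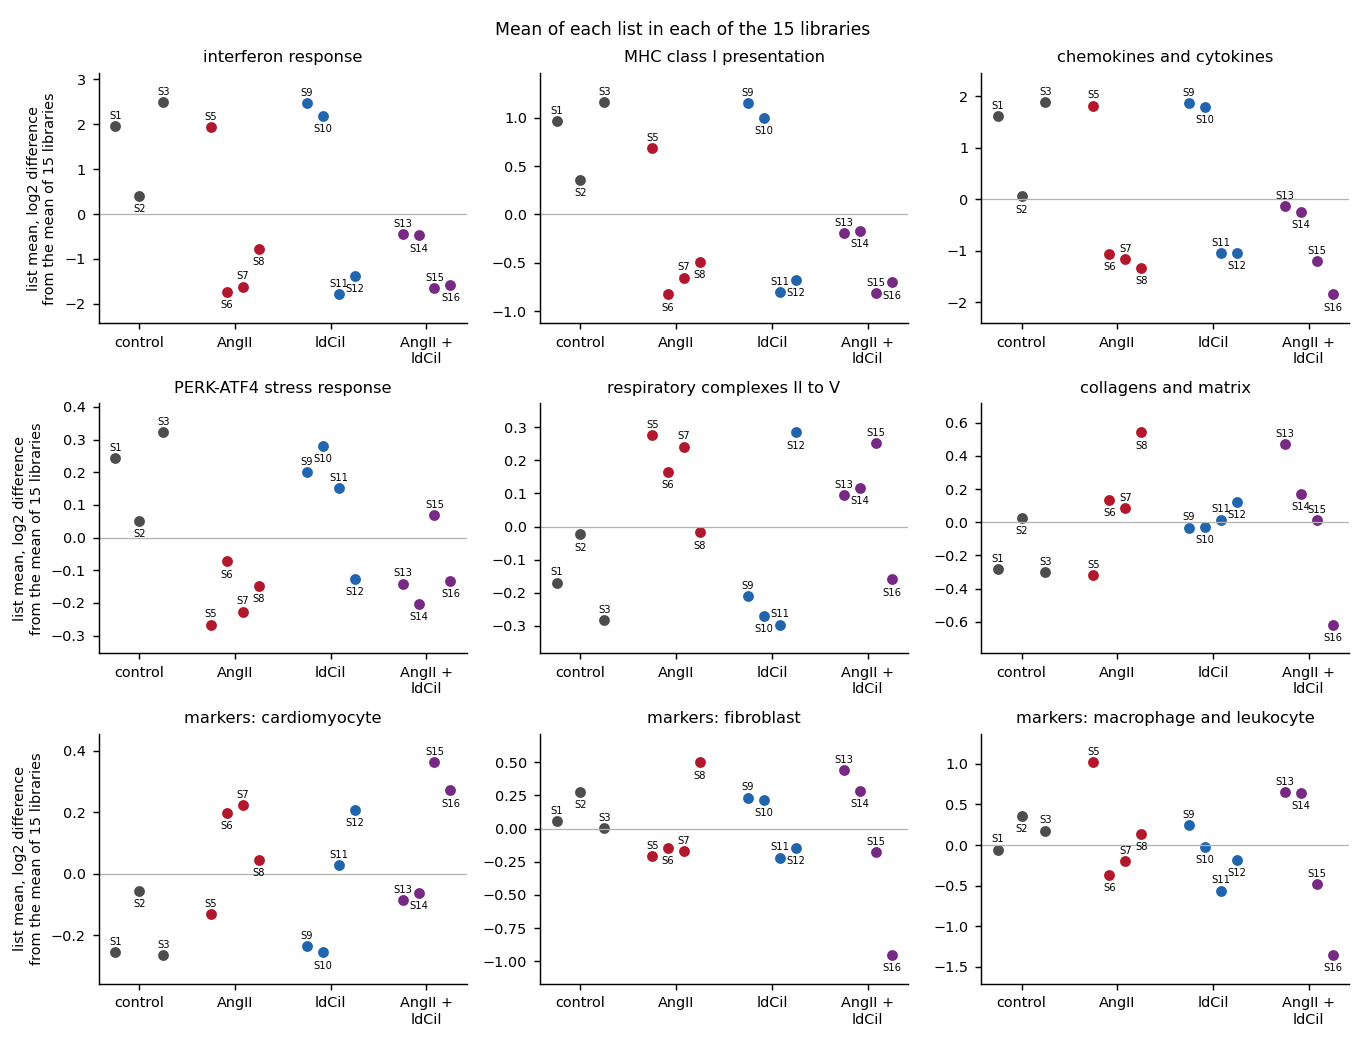
Mean of 9 gene lists in each of the 15 libraries, as the log2 difference from each gene's mean over all libraries, by treatment group. The interferon list stands at 1.96, 0.40 and 2.49 in the controls S1, S2 and S3 and below 0 in the 4 AngII + ldCil libraries, and S5 (AngII) and S9 and S10 (ldCil) stand with S1 and S3.

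Irf9 (chr14:55603571-55610030), an interferon regulatory factor that binds the response element, had log2 RPKM of 5.06, 4.35 and 5.19 in the controls and 3.39, 3.58, 3.91 and 3.02 in S13 to S16. The groups did not overlap, and the log2 fold change was −1.39 (SE 0.42). Oas2 (chr5:120730333-120749853), which makes the signal that activates RNase L, stood at 2.70, 0.41 and 3.09 in control and at −1.50, −1.23, −2.24 and −1.70 in AngII + ldCil libraries, a fold change of −3.73 (SE 1.05). Its lowest control, S2, was still above every AngII + ldCil library. Trim25, a ubiquitin ligase of the RIG-I pathway, had a fold change of −1.26 (SE 0.39) and lay within 3.89 to 4.16 in all 4 AngII + ldCil libraries. Bst2 (tetherin), which holds budding virus at the cell surface, was among the most abundant genes of the list at 6.93, 5.82 and 7.47 in control and 4.87, 5.04, 2.75 and 3.59 in AngII + ldCil libraries. There S15 and S16 lay well below S13 and S14, and the fold change of −2.68 had an SE of 1.14.

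MHC class I presentation showed a like split of libraries, with list means of 0.97, 0.35 and 1.16 in control and −0.19, −0.17, −0.82 and −0.70 in AngII + ldCil libraries. All 14 genes tested were lower (background 41.6%), 8 at an unadjusted p under 0.05 (background 2.92%), with a median of −1.10. Without S15 and S16 the 14 were still lower, with a median of −1.04, but 2 were at that p, and without S3 there were 5. B2m (chr2:122147686-122153083), the light chain shared by class I molecules, stood at 9.22, 8.88 and 9.29 in control and 7.76, 7.72, 6.66 and 6.07 in AngII + ldCil libraries. Every AngII + ldCil library was thus more than 1 log2 unit below every control, and the fold change was −2.08 (SE 0.67). The heavy chain gene H2-K1 (chr17:33996017-34000347) stood at 8.32, 7.57 and 8.64 against 6.29, 6.49, 5.74 and 5.47, a fold change of −2.18 (SE 0.61). For H2-Q7, a less abundant heavy chain gene, the fold change was −3.11 (SE 0.78). Class I heavy chain genes are close copies of each other, so the split of reads between them is uncertain. H2-T23, which encodes the non-classical molecule Qa-1, had a fold change of −1.82 (SE 0.55).

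Chemokines and cytokines, which call and instruct leukocytes, were lower in 21 of 23 genes tested (background 41.6%), 13 of them at an unadjusted p under 0.05 (background 2.92%), with a median of −1.62. The number at that p was 2 without S1, 0 without S3, 3 without S16 and 3 without both S15 and S16. Ccl2, the monocyte chemoattractant, stood at 9.10, 7.46 and 9.32 in control and 6.94, 7.03, 4.39 and 1.61 in AngII + ldCil libraries. Cxcl1, a neutrophil chemoattractant, stood at 8.28, 6.39 and 8.56 in control and 6.04, 5.98, 5.03 and 1.16 in AngII + ldCil libraries. For both, S16 was far below its group and S13 and S14 lay close to control S2, so that the SE was large: fold changes were −3.63 (SE 1.58) and −3.20 (SE 1.26). Without S15 and S16 they were −1.64 and −1.74.

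Il1b, the inflammasome cytokine, had the lowest fold change of any list member, −6.16, with an SE of 2.16. Its controls were themselves far apart, at 5.27 in S1, 0.50 in S2 and 5.62 in S3, and its AngII + ldCil values, −2.81, −4.06, −1.59 and −1.01, were all below 0. Lif, a cytokine of the IL-6 family that acts on cardiomyocytes, was steadier, at 5.41, 4.28 and 6.02 in control and 4.06, 3.91, 3.50 and 4.10 in AngII + ldCil libraries (fold change −1.35, SE 0.50). Il17d was the only member at an unadjusted p under 0.05 that was higher, with a fold change of 1.48 (SE 0.47) at low levels, −0.92 in control and 0.57 in AngII + ldCil libraries on average. Macrophage and leukocyte markers, cells that make several of these factors, did not move in 1 direction: 7 of 14 were higher and 7 lower, with a median of −0.01. That median was 0.52 without S16 and 0.74 without both S15 and S16, where 11 of 14 were higher. Their list mean was −0.06 to 0.36 in controls and 0.65, 0.64, −0.49 and −1.35 in S13 to S16, and its part in the chemokine values was not tested. Cd14, the lipopolysaccharide co-receptor, was the marker with the lowest fold change (−3.00, SE 1.05).

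Ddit3 (chr10:127290774-127296288) had the smallest p of all genes. It encodes CHOP, the transcription factor made late in the integrated stress response, in which kinases such as PERK raise ATF4. Its log2 RPKM was 5.67, 5.62 and 5.65 in control and 4.94, 4.83, 4.88 and 4.77 in AngII + ldCil libraries. Both groups were tight, including S2, S15 and S16, and they did not overlap. The fold change was −0.79 (SE 0.14, adjusted p = 0.849 by limma with Benjamini-Hochberg adjustment). AngII libraries averaged 4.98 ± 0.11 (SD, n = 4) and ldCil libraries 5.27 ± 0.32 (SD, n = 4). The difference of AngII + ldCil from AngII alone was −0.12 and did not pass, and that from ldCil alone was −0.41, at an unadjusted p under 0.01.

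Ddit3 belonged to a list of 29 PERK-ATF4 genes of which 24 were lower (background 41.6%), 9 at an unadjusted p under 0.05 (background 2.92%) and 0 higher at that p, with a median of −0.24. The list mean was 0.24, 0.05 and 0.32 in the controls and −0.14, −0.20, 0.07 and −0.13 in S13 to S16, so that S15 lay above control S2. Leaving out any of the 7 libraries gave 4 genes (without S3) to 10 at that p, with a median of −0.26 to −0.19, and leaving out S15 and S16 gave 8 genes and a median of −0.29. Against AngII alone the list did not stand lower, with a median difference of 0.11. Psat1, an enzyme of serine synthesis, stood at 4.97, 4.78 and 4.90 in control and 4.48, 4.57, 4.56 and 4.13 in AngII + ldCil libraries (fold change −0.45, SE 0.14). Trib3, a pseudokinase induced by ATF4 and CHOP, stood at 4.15, 3.48 and 4.51 against 2.83, 2.94, 3.25 and 3.03 (fold change −1.03, SE 0.39). The groups did not overlap for either gene. Atf4 itself was not among the lower genes, with a fold change of 0.52 that did not pass and overlapping groups. The C/EBP-ATF element TGATGNAA was matched on either strand in the promoter windows of 9 of 25 genes of the list (36.0%) and of 253 of the 9547 tested genes (2.65%). The list was written from textbook knowledge of the pathway, so nothing about these cells is read from that share.

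Chaperones differed less than these genes. Of 20 endoplasmic reticulum chaperones and folding factors 0 were at an unadjusted p under 0.05 in either direction, and Hspa5 (BiP), the best known of them, had a fold change of 0.00. Of 18 heat shock chaperones 14 were lower (background 41.6%) with a median of −0.13, 2 of them at that p (background 2.92%). Hspa9, the mitochondrial HSP70, was tight in both groups, at 9.13 to 9.19 in control and 8.86 to 8.96 in AngII + ldCil libraries, with a fold change of −0.27 (SE 0.10).

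**Figure D3:**
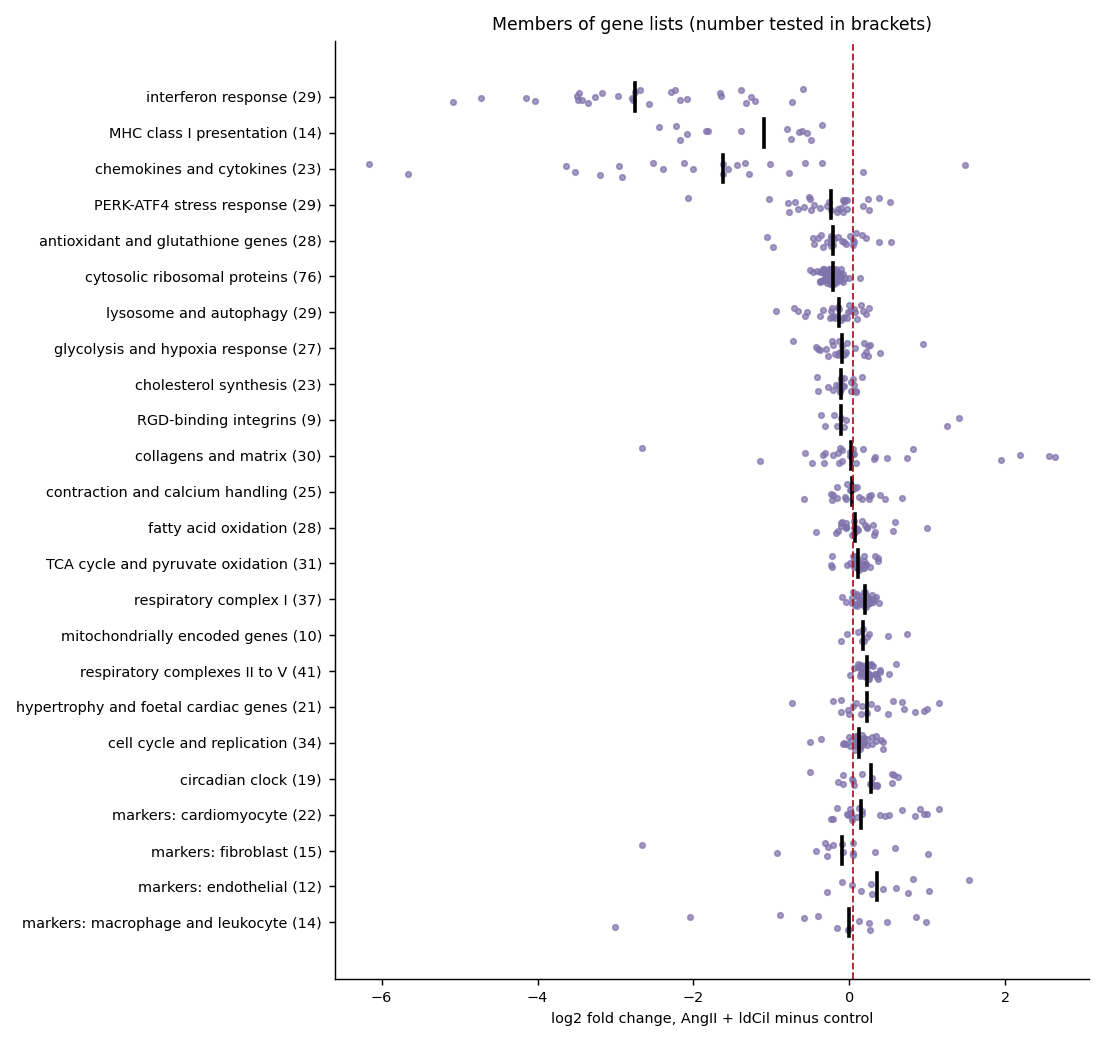
Log2 fold change of AngII + ldCil minus control for the tested members of 24 gene lists (points), with the median of each list (black bar) and the median of all genes tested (dashed line at 0.05). The interferon (median −2.75), chemokine (−1.62) and MHC class I (−1.10) lists lie to the left, and the respiratory chain lists in a narrow band to the right.

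The other lower genes with the smallest p had no common role. Tnr, which encodes the matrix protein tenascin-R, stood at 2.01, 1.87 and 2.04 in control and 0.74, 1.19, 0.44 and 0.05 in AngII + ldCil libraries (fold change −1.37, SE 0.32). Cyp1a1, the xenobiotic-metabolising enzyme induced through the aryl hydrocarbon receptor, stood at 2.70, 2.07 and 2.57 against −0.15, 0.98, 0.64 and 1.27 (fold change −1.76, SE 0.43). Fabp7, a fatty acid-binding protein best known from brain, stood at 1.999, 2.08 and 2.50 against 0.30, 0.94, 0.09 and 0.49 (fold change −1.74, SE 0.44). In these 3 genes control S2 stood with S1 and S3 rather than with S13 and S14.

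Parm1, an abundant membrane glycoprotein gene of the heart, stood at 7.96, 7.62 and 8.00 in control and 7.41, 7.44, 7.02 and 7.19 in AngII + ldCil libraries (fold change −0.59, SE 0.17). Serpinb1a, an inhibitor of neutrophil proteases, split its group, with 6.05 and 6.34 in S13 and S14 and 4.12 and 4.13 in S15 and S16, all below the controls at 7.72, 6.87 and 8.15 (fold change −2.42, SE 0.70). The remaining lower genes were B4galnt1 and Gcnt2, both glycosyltransferases, with fold changes of −0.77 and −0.88, and Depp1, a FOXO target, with −0.91. In all 12 leading lower genes the groups did not overlap, as their choice by p all but fixed, and 5 of the 12 had a mean level under 2.

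Among the 12 leading higher genes, 10 had groups that did not overlap (background 7.35%), which their choice by p all but fixed, and 7 had a mean level under 2, the range where folds above 0 prevailed. Filip1, Mgp and Col15a1 had the highest mean levels of the 12, each above 5. Mgp (chr6:136872435-136875823), matrix Gla protein, an inhibitor of calcification, stood at 2.95, 4.83 and 3.39 in control and 6.69, 5.83, 6.78 and 6.16 in AngII + ldCil libraries (fold change 2.64, SE 0.67). Col15a1 (chr4:47208161-47313167), a basement membrane collagen, stood at 3.13, 4.14 and 3.30 against 6.05, 5.17, 6.02 and 5.59 (fold change 2.19, SE 0.62). For both the nearest pair across the groups was control S2 and S14. AngII alone averaged 5.89 ± 1.03 (SD, n = 4) for Mgp and ldCil alone 5.69 ± 1.32 (SD, n = 4), so that the direct differences of AngII + ldCil from them, 0.47 and 0.68, did not pass.

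Filip1, which encodes a filamin-interacting protein, and Eps8, an actin-capping protein and EGF receptor substrate, had small folds and small spread. Filip1 stood at 5.44, 5.91 and 5.31 in control and 5.97, 5.91, 6.42 and 6.35 in AngII + ldCil libraries, where S2 all but met S14 (fold change 0.61, SE 0.17). Eps8 stood at 2.50, 2.82 and 2.33 against 3.28, 3.17, 3.06 and 3.14 (fold change 0.61, SE 0.16). Fbxo48, an F-box protein gene, was near 0 in the 3 controls (0.06, −0.21 and 0.01) and at 1.20, 0.97, 1.80 and 1.00 in AngII + ldCil libraries (fold change 1.29, SE 0.31).

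The relaxin gene Rln1 had the smallest p among the higher genes (fold change 2.07, SE 0.42). It rested on levels of −1.40, −1.70 and −0.58 in control and 0.34, 0.57, 1.49 and 0.99 in AngII + ldCil libraries, and AngII alone averaged 0.88 and ldCil alone 0.74. Lockd, a non-coding RNA gene just downstream of Cdkn1b, had a fold change of 1.44 (SE 0.33), also at low level, −0.56 in control on average. Strandedness of the libraries is not given in the sources used here, so reads from overlapping or adjoining transcripts cannot be told apart. Cables1, Galnt16 and Zfp169 had fold changes of 1.55, 1.32 and 1.51. In Apln, the apelin gene (1.79, SE 0.50), and Fbln1, fibulin-1 (1.41, SE 0.40), the groups overlapped because S16 stood at 0.78 and 1.77, below the highest control.

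**Figure D4:**
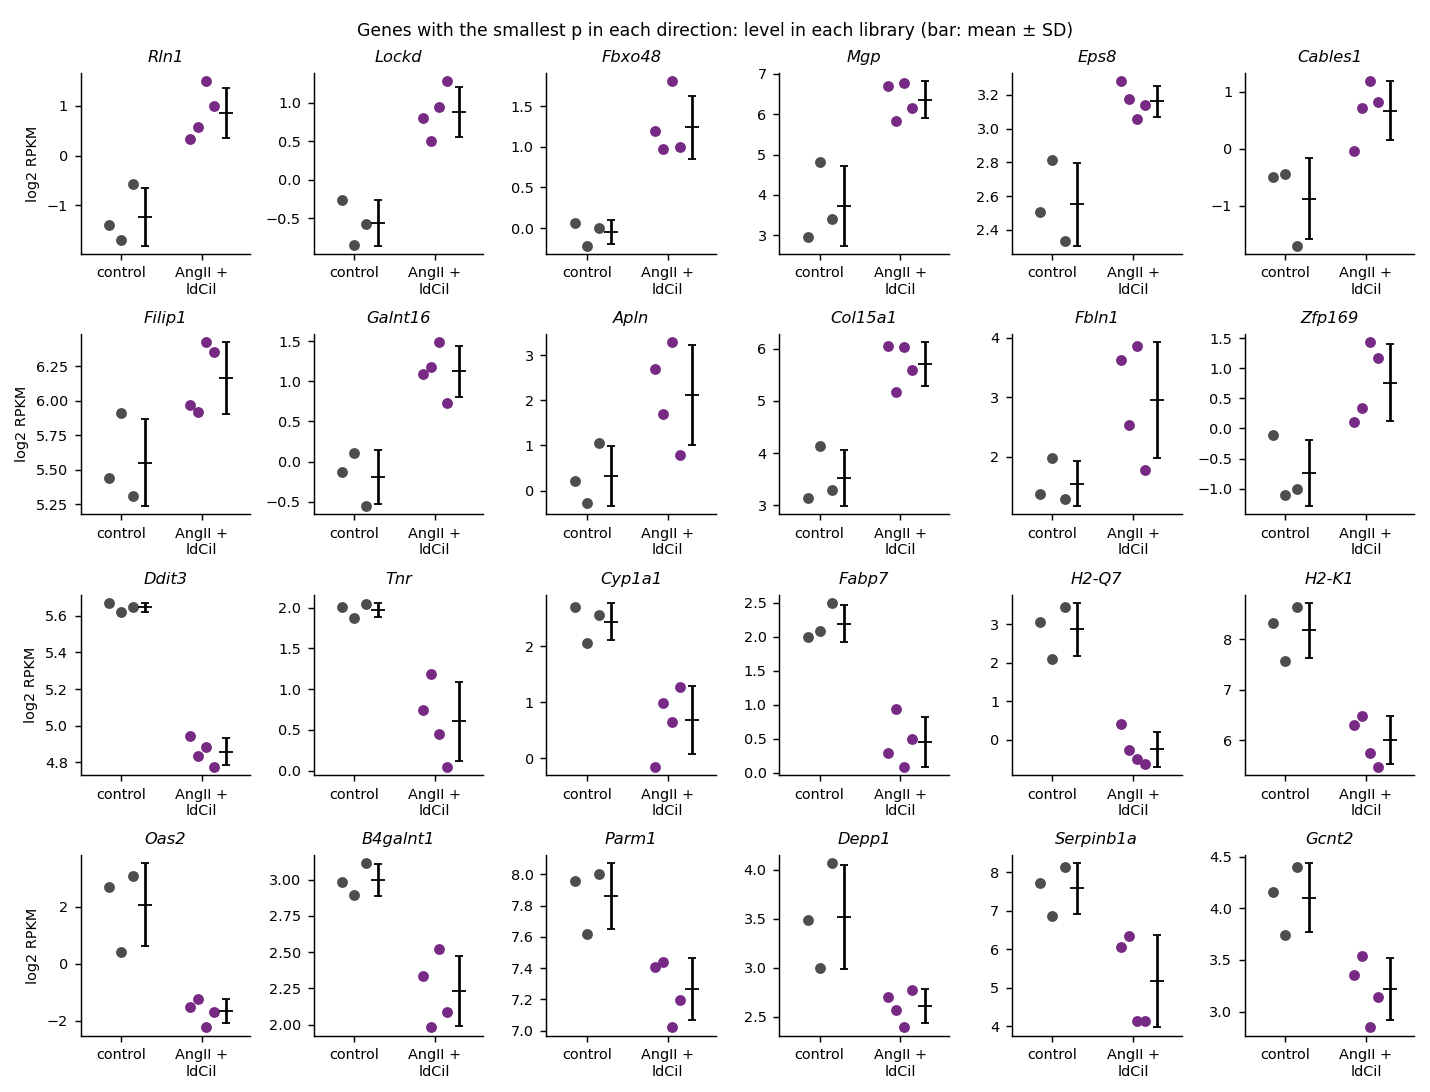
Log2 RPKM of the 24 leading genes, 12 higher (upper 2 rows) and 12 lower (lower 2 rows), in the control and AngII + ldCil libraries, with the mean and SD of each group beside the points. The groups do not overlap in 10 of the higher and all 12 of the lower genes, and Ddit3 shows the tightest groups, at 5.62 to 5.67 and 4.77 to 4.94.

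Matrix genes did not move together. Of 30 collagen and matrix genes 17 were higher and 13 lower (background 58.4% and 41.6%), with a median of 0.02. At an unadjusted p under 0.05, 4 were higher and 1 lower (background 2.70% and 2.92%). Decorin (Dcn), a small proteoglycan made by fibroblasts, went the other way from Mgp and Col15a1, at 8.62, 7.20 and 8.88 in control and 6.75, 6.49, 5.54 and 3.53 in AngII + ldCil libraries (fold change −2.66, SE 1.08). The fibrillar collagen gene Col1a1 had a fold change of −0.32 and did not pass. Fibroblast markers averaged 0.44, 0.28, −0.18 and −0.95 in S13 to S16, beside 0.01 to 0.28 in controls. The mean of the matrix list, 0.47, 0.17, 0.01 and −0.62, kept the same order of libraries. Both lists hold Dcn, so part of that likeness is built in. The part of the fibroblast markers in the matrix values was not tested. Without S15 and S16, 25 of 30 matrix genes were higher, with a median of 0.37.

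Timp1, the secreted inhibitor of metalloproteinases, stood at 8.98, 7.82 and 9.08 in control and 7.54, 7.58, 5.94 and 6.93 in AngII + ldCil libraries (fold change −1.63, SE 0.65). Mmp13, a collagenase, had a fold change of −2.45 (SE 0.86), from 4.15, 2.01 and 4.39 to 1.49, 1.66, 1.02 and 0.09. In both genes S2 was the control nearest to S13 and S14. The other proteases and inhibitors were spread on either side of 0, with a list median of −0.08 that was 0.16 without S16.

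Respiratory chain genes stood slightly higher in AngII + ldCil than in control libraries. These nuclear genes encode the subunits that pass electrons to oxygen and make ATP. In complex I, 35 of 37 genes were higher with a median of 0.19, and in complexes II to V, 41 of 41 with a median of 0.23, where 58.4% of all genes were higher. Few passed the threshold: 2 and 3 at an unadjusted p under 0.05 (background 2.70%). The complex II to V mean was −0.17, −0.02 and −0.28 in the controls and 0.09, 0.12, 0.25 and −0.16 in S13 to S16, so S16 lay among the controls. Medians over the fits that left out 1 of the 7 libraries ran from 0.16 to 0.30 for complexes II to V and from 0.13 to 0.24 for complex I. For complexes II to V, AngII + ldCil was lower than AngII alone by a median of −0.08. Of the 41 genes, 0 were at an unadjusted p under 0.05 (background 1.61% higher and 0.965% lower). Against ldCil alone the median was higher by 0.20, with 4 genes at that p (background 2.75% higher and 2.33% lower).

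Atp5k, a small subunit of ATP synthase, stood at 5.88, 6.07 and 5.93 in control and 6.40, 6.32, 6.38 and 6.32 in AngII + ldCil libraries (fold change 0.40, SE 0.15). Cox7c, a subunit of cytochrome c oxidase, stood at 6.74, 6.69 and 6.55 against 7.03, 7.07, 7.21 and 6.91 (fold change 0.40, SE 0.17). In neither gene did the groups overlap, S16 included. The ATP synthase genes Atp5b and Atp5a1, the most abundant of the list, had fold changes of only 0.01 and 0.06, which did not pass. Of 10 mitochondrially encoded genes 8 were higher (background 58.4%) with a median of 0.18. Among them mt-Nd6, which lies on the strand opposite to the others, had a fold change of 0.49 (SE 0.20). Since strandedness is not given, reads from the other strand there cannot be told apart from those of mt-Nd6.

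Fuel oxidation showed the same direction at smaller size. Of 31 genes of the TCA cycle and pyruvate oxidation 27 were higher (background 58.4%) with a median of 0.11. Of these, 1 was at an unadjusted p under 0.05 (background 2.70%). That was Idh3b, a subunit of isocitrate dehydrogenase, at 7.13, 7.36 and 6.98 in control and 7.51, 7.45, 7.76 and 7.39 in AngII + ldCil libraries (fold change 0.37, SE 0.15). The list median was 0.04 without S15, 0.055 without S3 and 0.25 without S16. Fatty acid oxidation genes were closer to the background, 18 of 28 higher with a median of 0.07. Without S3 or S15 they were higher in 14, with medians of 0.0063 and 0.0066, and without S16 in 24, with a median of 0.17. Fabp3, the heart fatty acid-binding protein, had the smallest p there (fold change 0.59, SE 0.24), with S15 at 8.32 above the other 3 at 7.71 to 7.79. Ppargc1b, a coactivator of mitochondrial genes, had a fold change of 0.31 (SE 0.14).

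Glycolysis and hypoxia-response genes were lower in 18 of 27 (background 41.6%), with a median of −0.09. The direction of the list turned without S16, where 16 of 27 were higher, with a median of 0.04. Without S15, 25 were lower with a median of −0.20, and without both S15 and S16, 20 were lower with a median of −0.17. Without S3 the median was −0.01. The list mean of S15 was 0.58, above every control (−0.12 to −0.0020). Those of S13, S14 and S16, at −0.25, −0.26 and −0.54, were below every control. Hif1a, the oxygen-sensitive transcription factor, was tight in the treated group at 7.13, 7.18, 7.03 and 7.03, below controls of 7.97, 7.41 and 8.08 (fold change −0.73, SE 0.28). Pkm, pyruvate kinase, stood at 9.88, 9.66 and 9.88 in control and 9.56, 9.53, 9.61 and 8.80 in AngII + ldCil libraries (fold change −0.43, SE 0.17). Its difference from AngII alone was of like size, −0.46, and passed too. S16 was the lowest library, and without it the fold change from control was −0.24.

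Contractile genes as a list stood level, while some cardiomyocyte genes stood higher. Of 25 genes of contraction and calcium handling 16 were higher and 9 lower (background 58.4% and 41.6%) with a median of 0.04. Without S15 that median was −0.07. Of 22 cardiomyocyte markers 17 were higher (background 58.4%), 4 of them at an unadjusted p under 0.05 (background 2.70%), with a median of 0.14. Without S3 there were 0 at that p, without S1 or S16 there was 1, and without S15 there were 2, with a median of 0.06. Their list mean was −0.25, −0.06 and −0.26 in controls, −0.09 and −0.06 in S13 and S14, and 0.36 and 0.27 in S15 and S16. Without the latter pair 0 markers were at that p, although the median was 0.16.

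Csrp3, the muscle LIM protein of the Z-disc, stood at 8.19, 8.39 and 8.01 in control and 8.49, 8.69, 9.38 and 9.86 in AngII + ldCil libraries (fold change 0.91, SE 0.33). Tbx20, a cardiac transcription factor, stood at 7.503, 8.03 and 7.33 against 8.15, 8.20, 8.33 and 9.17 (fold change 0.84, SE 0.33). AngII alone averaged 7.63 ± 0.72 (SD, n = 4) and ldCil alone 7.59 ± 0.19 (SD, n = 4) for Tbx20, and AngII + ldCil was above both, by 0.83 and 0.87, each at an unadjusted p under 0.05. Casq2, the calcium store protein of the sarcoplasmic reticulum, had a fold change of 0.46 (SE 0.21) and Gata4, a transcription factor of hypertrophic growth, 0.57 (SE 0.26). Neither pair of groups overlapped.

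The classical hypertrophy genes differed in how evenly the libraries carried them. Myh7, the foetal myosin heavy chain, stood at 6.05, 6.18 and 6.11 in control and 6.31, 6.15, 7.16 and 8.68 in AngII + ldCil libraries. S13 and S14 lay at or near the control level and the fold change of 0.96 (SE 0.45) rested on S15 and S16, and without S16 it was 0.43. Nppb, brain natriuretic peptide, stood at 9.67, 9.78 and 9.73 against 9.90, 9.99, 10.07 and 10.34, with no overlap, but with an SE shared by all 4 groups the fold change of 0.35 (SE 0.30) did not pass. Nppa (−0.02), Acta1, the skeletal actin (0.08), and Myh6 (−0.21) did not pass either.

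The receptors of both agents differed little. Agtr1a, the mouse AT1 receptor, stood at 0.88, 1.24 and 1.24 in control and 1.27, 1.40, 1.36 and 1.24 in AngII + ldCil libraries (fold change 0.20, SE 0.25), which did not pass, and Agtr2 was not analysed here. Of the integrin subunits that cilengitide binds, αv (Itgav) had a fold change of −0.20 (SE 0.18), β3 (Itgb3) −0.32 (SE 0.37) and β5 (Itgb5) −0.05 (SE 0.19), and none of them passed. Per length, Itgb5 was more abundant than Itgb3, at a log2 RPKM of 7.49 against 3.26 in control libraries. Of 9 RGD-binding integrin genes 7 were lower (background 41.6%) and 0 were at an unadjusted p under 0.05. The groups were apart without passing the test for Itgb8, a partner of αv, at −0.51, 0.81 and 0.63 in control and 1.64, 1.12, 2.38 and 1.09 in AngII + ldCil libraries (fold change 1.25, SE 0.65).

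Downstream signalling genes were mixed. Among 29 genes of the RAS-ERK pathway and its inhibitors 13 were higher and 16 lower (background 58.4% and 41.6%), with a median of −0.04. The sprouty inhibitors went opposite ways. Spry4 stood at 5.10, 4.90 and 5.31 in control and 4.81, 4.61, 3.98 and 4.30 in AngII + ldCil libraries (fold change −0.68, SE 0.21). Spry1 stood at 3.22, 4.36 and 3.37 against 4.72, 4.47, 4.56 and 5.31 (fold change 1.12, SE 0.51). The kinase MEK1 (Map2k1) had a fold change of −0.33 (SE 0.12). Among 25 immediate early genes Junb, an AP-1 subunit, had a fold change of −0.72 (SE 0.26) while its relative Jun, at 0.59 (SE 0.31), did not pass. Of the TGF-β ligands, Tgfb1 had a fold change of −0.43 and Tgfb3 one of 0.53, both with overlapping groups.

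Endothelial markers were higher in 10 of 12 genes tested (background 58.4%), with a median of 0.36, 2 of them at an unadjusted p under 0.05 (background 2.70%). Those 2, Kdr and Vwf, had a mean level under 1, where the median fold change of all genes was 0.38. Kdr, the VEGF receptor 2 through which endothelial cells are driven to form vessels, stood at −0.47, 0.19 and 0.17 in control and 1.85, 1.18, 1.39 and 1.55 in AngII + ldCil libraries (fold change 1.53, SE 0.46). It was above AngII alone by 0.98, at an unadjusted p under 0.05, and above ldCil alone by 0.90, which did not pass. Flt1, the VEGF receptor 1 and the more abundant of the pair per length, stood at 3.37, 3.68 and 3.34 against 4.42, 4.23, 4.03 and 4.17 (fold change 0.75, SE 0.38). The groups for Flt1 were apart but the gene did not pass. For Vwf, the endothelial clotting factor, S13 stood at 1.496 beside 0.26 to 0.31 in the other 3, and the fold change of 1.02 (SE 0.41) was 0.72 without it and 0.77 without S2, neither at an unadjusted p under 0.05. The list mean was likewise highest in S13, 0.92 beside 0.25, −0.08 and 0.07, and without S13 the median was 0.14. In the other fits that left out 1 of the 7 libraries the median ran from 0.27 without S2 to 0.57 without S3. Without both S15 and S16 it was 0.68, with all 12 genes higher.

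Over all genes tested 58.4% were higher and 41.6% lower, the background for the counts that follow. Lists with 0 genes at an unadjusted p under 0.05 included cholesterol synthesis (7 of 23 higher, median −0.11), the proteasome (median −0.08) and YAP-TEAD targets (median 0.08). The sign of the median turned without S15 for cholesterol synthesis (0.0064) and without S16 for YAP-TEAD targets (−0.025). Cell cycle and replication genes were higher in 29 of 34 with a median of 0.13 and 0 at that p, but medians ran from 0.06 without S13 to 0.26 without S2, and the list mean of S16 (−0.22) lay below all 3 controls. Cytosolic ribosomal protein genes were lower in 75 of 76 with a median of −0.21, but without S15 they were lower in 40 with a median of −0.02. Many of them have near-identical pseudogenes, so their reads are uncertain. Circadian clock genes were higher in 15 of 19 with a median of 0.28, among them Cry2 (0.35, SE 0.16) and Tef (0.35, SE 0.15), and without S15 and S16 the median was 0.09. Antioxidant and glutathione genes were lower in 19 of 28 with a median of −0.21. Nqo1, the quinone reductase induced by NRF2, stood at 5.54, 4.82 and 5.51 in control and 4.58, 4.73, 4.23 and 3.71 in AngII + ldCil libraries (fold change −0.98, SE 0.33).

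To ask whether the combination differed from either agent alone, AngII + ldCil was set directly against the AngII and the ldCil libraries, since all 3 treatments share the control libraries. No gene differed at an adjusted p under 0.05 in limma in either comparison. Against AngII 207 genes were higher (1.61%) and 124 lower (0.965%) at an unadjusted p under 0.05. Against ldCil 353 were higher (2.75%) and 299 lower (2.33%). In each comparison 642 genes in all would be reached by chance. Of the 24 leading genes 4 differed from AngII alone at that p: Filip1 (0.46), Fbxo48 (0.81), Parm1 (−0.42) and Tnr (−0.69). From ldCil alone 10 differed, among them Filip1 (0.62), B4galnt1 (−0.80), Eps8 (0.53), Parm1 (−0.53) and Tnr (−0.98). The 24 were picked by p against control in the same AngII + ldCil libraries, so nothing is read from the 4 and the 10. Of the 276 genes that the naming rule gave, 6 differed from all 3 other groups at an unadjusted p under 0.05: Filip1, Parm1, Tnr, Pkm, Tbx20 and Ncam1, a neural cell adhesion molecule also made by muscle. Over all 12848 genes 28 did (0.218%), and since the rule names genes partly for a small p against control, nothing is read from the 6. Ncam1 stood at 7.19, 6.85 and 7.20 in control and 6.53, 6.58, 6.55 and 6.48 in AngII + ldCil libraries, with AngII alone at 6.97 ± 0.29 (SD, n = 4) and ldCil alone at 7.17 ± 0.28 (SD, n = 4). Its differences were −0.55 from control, −0.44 from AngII and −0.64 from ldCil. The combination group was the tightest of the 4 for this gene, with an SD of 0.04. For Rln1, Lockd, Cables1, Galnt16 and Zfp169 the difference from AngII alone was between −0.19 and 0.03.

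**Figure D5:**
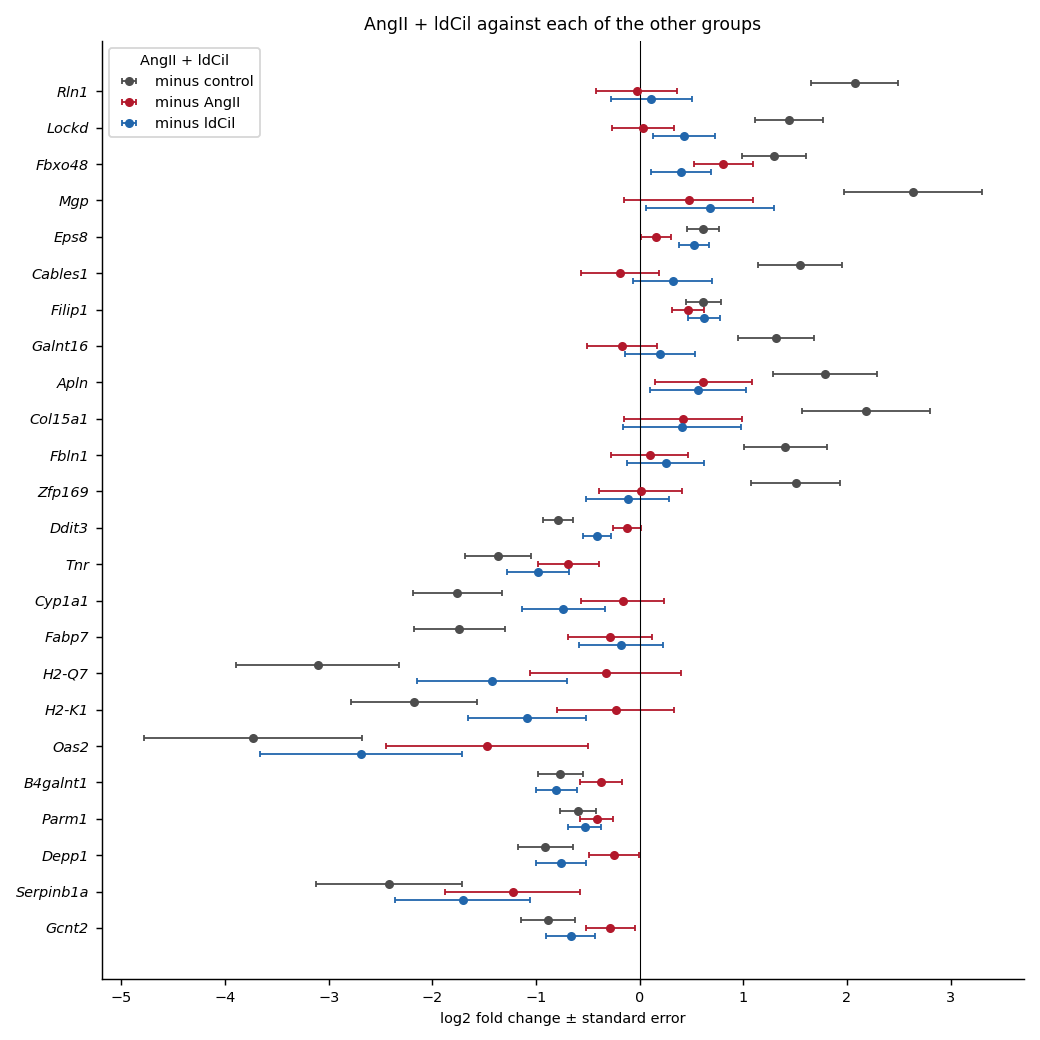
Log2 fold change (point) and standard error (bar) of the 24 leading genes in AngII + ldCil minus control, minus AngII and minus ldCil. Genes were chosen and ordered by their p against control, the higher genes first and then the lower. Filip1, Parm1 and Tnr lie away from 0 in all 3, and Rln1, Lockd, Cables1, Galnt16 and Zfp169 lie near 0 against AngII (−0.19 to 0.03).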

How the data were processed

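RNA-Seq of poly(A)-captured RNA was measured in 15 libraries of cultured mouse cardiomyocytes. Per the labels, HISAT2 and the mm10 (GRCm38) genome were used, with HTSeq for counting. Annotation release and strandedness were not given in the sources used here, nor were tool versions. The deposited values are log2 RPKM that the authors normalised by conditional quantiles, a correction for the length and GC content of genes. The 75th percentile was 4.93 in all 15 libraries. No read counts were used here, so precision by depth is unknown. Gene names and positions were matched to GENCODE M21 (GRCm38), 14329 of 14337 genes.

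The test was limma 3.58.1 in R 4.3.3, with 1 mean per group over all 15 libraries, no covariate and empirical Bayes moderation with a trend, on the 12848 genes whose log2 RPKM averaged 0 or more. P-values are 2-sided, with Benjamini-Hochberg adjustment over all genes tested. No pseudocount was added. The script was tested on simulated data. For list means, a gene's mean over all libraries was subtracted. Lists (42, of which 41 had a gene tested) were described by counts and medians, with no set test.

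The comparison, the gene lists and the naming rule were chosen with earlier results of these data known. The rule names, in each direction, the 12 genes of smallest p that carry a gene name (5 passed over, with Gm or Rik symbols), the 2 members with the smallest p per list and direction, the 3 most abundant members per list, the genes of the receptors and hypertrophy markers, and genes the study named for AngII. Alternatives were the filter, a pseudocount, median centring, quantile normalisation, the libraries in the fit, the moderation, library weights and fits without 1 library. Leaving out S15 and S16 together was chosen after seeing the data.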

Additional observations from a re-analysis of the deposited data

Results flagged for a closer look

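Within the 4 AngII + ldCil libraries, 6 of 135 values examined (genes named and list means) had 1 library far from the other 3 by Dixon's gap test, which flags about 5% of such groups by chance. Vwf, the endothelial clotting factor, stood at a log2 RPKM of 1.496 in S13. Fabp3, the heart fatty acid-binding protein, stood at 8.32 in S15. In S16 the kinase gene Map2k1 stood low at 5.69, pyruvate kinase Pkm at 8.80 and the potassium channel gene Kcnq1 at 4.12, beside 5.22 to 5.44 for Kcnq1 in the other 3. The mean of the antioxidant and glutathione list stood high in S15, at 0.033 beside −0.23 to −0.19 in the other 3. S15 and S16 were also the libraries furthest from the controls over all genes.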

How the results depend on the processing

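At an unadjusted p under 0.01 the counts of 59 higher and 52 lower genes depended on the filter and on the libraries. Without a filter on low values 143 were higher, at a mean of at least 2 there were 13 higher and 31 lower, and quantile normalisation gave 30 higher. With only the 7 libraries compared in the fit there were 111 and 269. Leaving out S15 and S16, chosen after seeing the data, gave 38 and 24. Leaving out any 1 of the 15 libraries gave 22 to 81 higher and 6 to 114 lower, with the lowest counts without S3 and S1 and the highest without S2. At an adjusted p under 0.05 every alternative gave 0 genes except library weights, which gave 2311, with 1299 higher and 1079 lower at an unadjusted p under 0.01. Those weights ran from 0.113 for S5 and 0.253 for S16 to 7.01 for S1, so a single control carried most of its group.

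Of the 41 gene lists, 24 had a median of the same sign in every fit made for them. Among those that did not were glycolysis and hypoxia response (0.04 without S16), contraction and calcium handling (−0.07 without S15) and cholesterol synthesis (0.0064 without S15). Direction was the same in every alternative for all but 3 of the 94 single genes followed. Itgb5 changed sign with library weights (0.13), without S2 (0.051), without S15 (0.056) and without S15 and S16 (0.13), and ran from −0.13 to 0.056 with 1 library left out. Acta1 changed sign without S3 (−0.077) and without S15 (−0.069), in a range of −0.077 to 0.29, and Nppa without S13 or S14 (0.054 in each case), in a range of −0.17 to 0.054. Their main fold changes were −0.05, 0.08 and −0.02. The cause was not tested. No paired analysis was possible because the labels give no replicate numbers that link libraries across groups. The files hold no counts, so what depth limits is unknown.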
